A study of Mus musculus with 8 samples.

Results

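The inflammasome and caspase genes described here are Nlrp3, Nlrc4, Aim2, Pycard, Casp1, Casp4 and Casp8. They were chosen by gene name among the probes of a mouse whole-genome array, and they are 7 of the 27398 gene names on it. The 7 genes were covered by 8 probes, 2 of them for Pycard. The rule used names alone, although the genes were chosen with earlier results of these data known.

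RNA came from dendritic cells (DC) of male C57BL/6Jax mice, whose total bone marrow had been kept for 7 days in medium with GM-CSF, a growth factor, at 40 ng/mL. The 4 groups were miR-155 knockout (KO) DC given 100 ng/mL lipopolysaccharide (LPS, a component of the outer membrane of Gram-negative bacteria) for 16 h, wild-type (WT) DC given the same LPS, unstimulated KO DC and unstimulated WT DC, with 2 one-colour arrays each. LPS samples were sorted as CD86+ adherent DC and unstimulated samples as CD86- DC, so that each LPS comparison is also a comparison of these gates. The knockout is labelled only as miR-155 KO, with no promoter, Cre line or age given, and the labels do not say whether the 2 replicates of a group came from separate animals or cultures. P values therefore measure the spread between these samples, which may be technical.

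Inflammasomes are cytosolic complexes that activate inflammatory caspases. A sensor such as NLRP3, NLRC4 or AIM2 detects a danger signal and, through the adaptor ASC (encoded by Pycard), recruits caspase-1, which cleaves the precursors of interleukin-1 beta and interleukin-18 and the pore-forming protein gasdermin D. Caspase-11, encoded in the mouse by Casp4, binds LPS in the cytosol directly and cleaves gasdermin D, while caspase-8 starts death-receptor apoptosis and restrains necroptosis. In myeloid cells, Toll-like receptor signalling is known to raise transcription of Nlrp3 and of the precursor of interleukin-1 beta, a step called priming.

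The microRNA removed in KO cells, miR-155-5p, has the mature sequence below (RefSeq, GRCm38.p6, plus strand, chr16:84714143-84714165), shown because it defines the genotype, with its seed, bases 2 to 8, in capitals. The array held 0 probes named for its gene, so the knockout could not be checked on these arrays.
miR-155-5p: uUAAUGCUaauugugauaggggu

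The Pycard result rests on 2 probes of 60 bases that overlap, and both are shown because they do not read the transcript independently. Their shared 40 bases are in capitals. The file headers give mm9, and both probes lie on the minus strand, at chr7:135136221-135136280 and chr7:135136241-135136300. The first one was the brighter and was used for the gene.
Pycard probe 1: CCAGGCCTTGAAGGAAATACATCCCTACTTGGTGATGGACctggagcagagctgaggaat
Pycard probe 2: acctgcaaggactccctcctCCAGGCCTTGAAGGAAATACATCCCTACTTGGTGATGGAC

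Each other member had 1 probe, placed by the files on mm9. The Nlrp3 probe lies at chr11:59378554-59378613 on the plus strand, the Nlrc4 probe at chr17:74826172-74826231 on the minus strand and the Aim2 probe at chr1:175395269-175395328 on the plus strand. The Casp4 probe lies at chr9:5336645-5336704 and the Casp8 probe at chr1:58901601-58901660, both on the plus strand. The Casp1 probe, on the plus strand of chr9 near Casp4, covers chr9:5306226-5306728, a span with 443 bases more than the 60 of the probe. Whether each lies in a coding exon or a UTR was not annotated here.

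Promoter sequences, 250 bases before to 50 bases after each start site in RefSeq (GRCm38.p6), were found for all 7 members. An NF-kB motif, searched on both strands as a fixed pattern of letters, had a match at both start sites of Casp4 and at 1 of the 2 start sites of Nlrp3. Such a match is present in 4.51% of the 32851 promoters in the same table. Both are shown because these genes were in the group that rose after LPS in WT, with the matches in capitals. The Casp4 window (start site 1 of 2, plus strand, chr9:5308599-5308898) holds overlapping matches at positions -93 to -83, counted with the start site as 0. The Nlrp3 window (start site 1 of 2, plus strand, chr11:59541319-59541618) holds 1 match on the opposite strand at positions -186 to -177.
Casp4 promoter: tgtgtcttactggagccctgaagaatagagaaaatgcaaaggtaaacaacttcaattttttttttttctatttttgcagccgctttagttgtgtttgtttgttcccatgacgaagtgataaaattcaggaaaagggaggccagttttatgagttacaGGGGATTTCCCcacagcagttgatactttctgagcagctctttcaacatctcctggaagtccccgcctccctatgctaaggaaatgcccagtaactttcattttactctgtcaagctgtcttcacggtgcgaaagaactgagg
Nlrp3 promoter: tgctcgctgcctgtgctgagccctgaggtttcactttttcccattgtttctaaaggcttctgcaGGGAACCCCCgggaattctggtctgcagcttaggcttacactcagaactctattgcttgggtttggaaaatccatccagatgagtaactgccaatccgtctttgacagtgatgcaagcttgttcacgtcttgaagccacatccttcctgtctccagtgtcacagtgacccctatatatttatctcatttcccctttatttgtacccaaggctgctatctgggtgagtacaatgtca

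The second Casp4 start site carries the same matches at positions -104 to -94, since its window overlaps the first. The window of the second Nlrp3 start site (chr11:59542436-59542735) had no match. Casp1 and Pycard, which also changed after LPS, and Nlrc4, Aim2 and Casp8 had no match to this NF-kB pattern. Looser forms of the motif were not searched. No member window held the core of the interferon-stimulated response element, GAAA and GAAA with any 2 bases between them (3.44% of all promoters, both strands), the GAS element TTCNNNGAA (8.3%) or the AP-1 element TGANTCA (7.81%). These are matches of letters in these windows and no measurement of binding.

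Levels are given as the scaled log2 signal, the log2 of the processed signal of the probe minus the 75th percentile of its array, so that 0 is that percentile. Signals of different probes are not compared gene by gene. The sums of cell type markers below do add different probes, so the brightest probes weigh most in them. On each array 50.81% to 58.27% of spots were well above background, the 75th percentile lay between 474.07 and 750.39 intensity units and 0 spots were saturated. The first principal component (75.55% of the variance) had all 4 LPS arrays on one side and all 4 unstimulated arrays on the other. The second (9.568%) was positive for replicate 1 of every group (17.64 to 44.7) and negative for replicate 2 of every group (-42.39 to -21.94). The arrays lay on 2 slides, with 3 of the 4 LPS arrays on slide 2 and 3 of the 4 unstimulated arrays on slide 1, so calls lost with slide as a block or within a slide are given for the members beside each value and for other genes together after their lists.

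**Figure D1:**
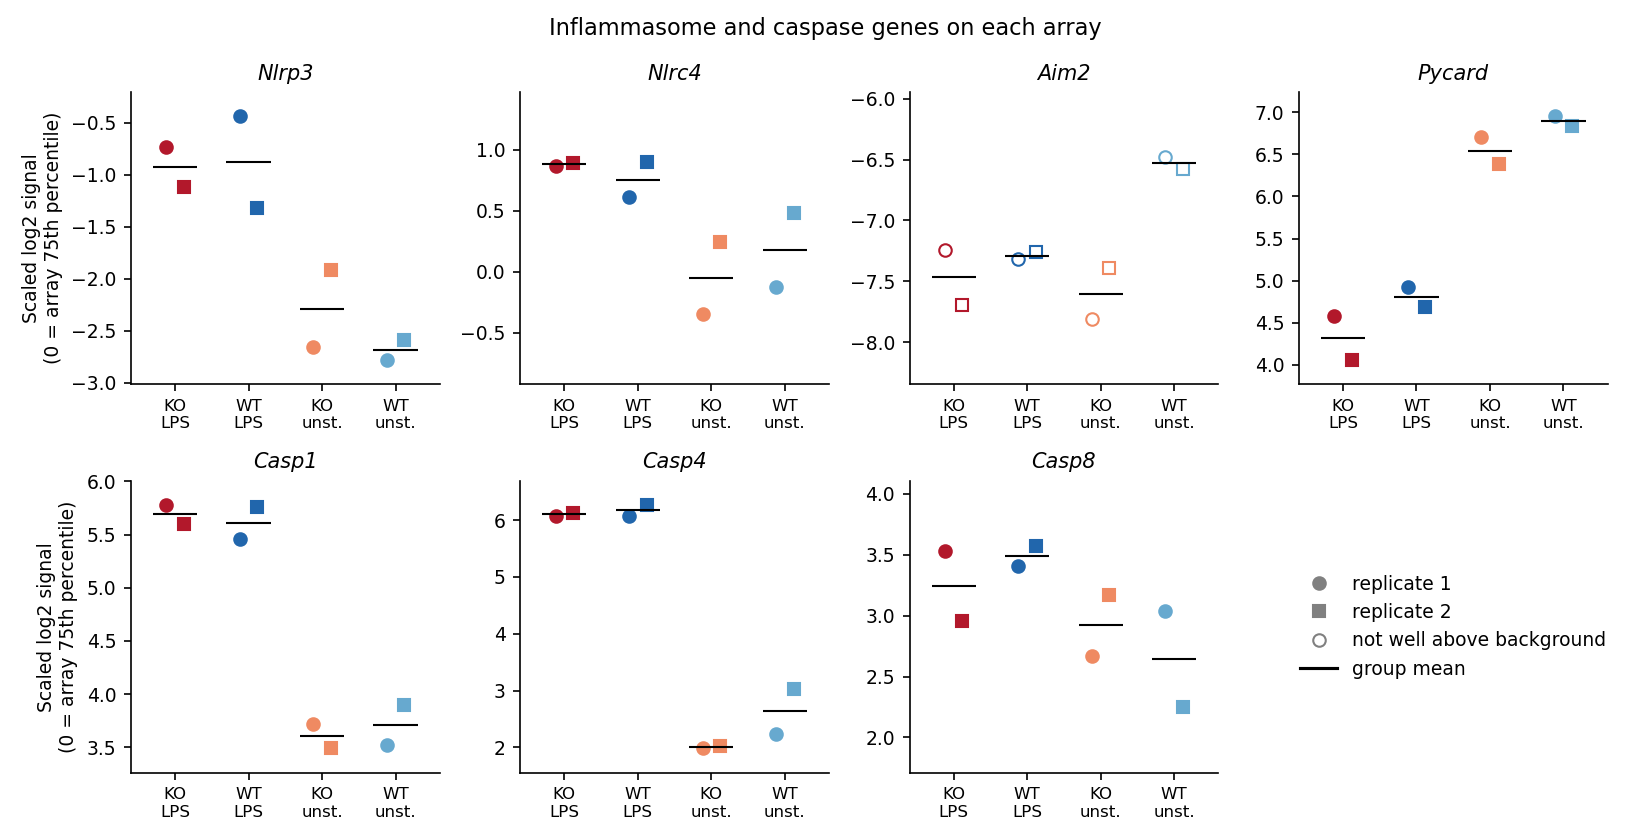
Scaled log2 signal (vertical axes, each with its own range) of the 7 members on each of the 8 arrays, by group. Points are arrays, short lines group means of 2, and open symbols arrays on which the probe was not well above background. Casp4, Casp1 and Nlrp3 lie higher and Pycard lower on LPS arrays of both genotypes, and all 8 Aim2 symbols are open.

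Of the 7 members, 6 were well above background on all 8 arrays and were tested. Aim2, the sensor of cytosolic double-stranded DNA, was not well above background on any of the 8 arrays. Its processed signals were 3.48 and 3.13 intensity units on KO LPS arrays, 3.75 and 3.46 on WT LPS arrays, 3.34 and 4.08 on unstimulated KO arrays and 7.6 and 4.96 on unstimulated WT arrays. No fold change is given for it.

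After LPS, the mRNA of caspase-11 and caspase-1 was higher and that of the adaptor ASC lower in DC of both genotypes. Casp4 rose 17.2-fold in KO and 11.6-fold in WT, Casp1 rose 4.25-fold in KO and 3.73-fold in WT, and Pycard fell 4.67-fold in KO and 4.24-fold in WT. Nlrp3 rose 3.5-fold in WT and had a 2.57-fold higher mean in KO that missed the threshold. Nlrc4 and Casp8 passed the test in neither genotype in the fit reported.

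In KO cells 3 of the 6 tested members were called, 2 higher and 1 lower, at an adjusted p under 0.05 in limma over 15400 genes, beside 20.8% of all genes called in the LPS response in KO (10.4% higher and 10.5% lower). In WT cells 4 of the 6 were called, 3 higher and 1 lower, beside 20.2% of all genes (9.48% higher and 10.7% lower). The median log2 difference of the 6 members was 1.15 in KO and 1.33 in WT, against 0.05 and 0.0 over all genes tested in those comparisons. With 6 genes such counts describe the members and no more.

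Casp4 had the largest LPS response among the members in both genotypes. Its scaled log2 signal was 6.08 and 6.13 on KO LPS arrays against 1.98 and 2.02 on unstimulated KO arrays. In WT it was 6.08 and 6.27 after LPS against 2.24 and 3.03 without. All 4 LPS arrays lay above all 4 unstimulated arrays, and the 4 LPS arrays lay within 0.19 of each other while the unstimulated WT arrays differed by 0.79. The log2 difference was 4.10 ± 0.32 (SE, n = 2 arrays a group) in KO, with a limma adjusted p of 0.000478, and 3.54 ± 0.32 in WT, with an adjusted p of 0.000969.

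Casp1, the caspase that matures interleukin-1 beta, had scaled log2 signals of 5.78 and 5.6 on KO LPS arrays against 3.72 and 3.49 on unstimulated KO arrays. In WT these were 5.46 and 5.76 after LPS against 3.52 and 3.9 without. The LPS and unstimulated arrays did not overlap in either genotype. The log2 difference was 2.09 ± 0.27 in KO (adjusted p = 0.00308, limma) and 1.90 ± 0.27 in WT (adjusted p = 0.00494, limma). Within a single slide, where 1 array of one state meets 2 of the other, it was 1.97 in KO and 2.05 in WT, and the limma adjusted p was 0.0719 and 0.0607, so that these calls were lost there.

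Pycard went the opposite way from the other called members. With the brighter probe its scaled log2 signal was 4.58 and 4.06 on KO LPS arrays against 6.7 and 6.38 on unstimulated KO arrays. In WT it was 4.92 and 4.69 after LPS against 6.95 and 6.83 without. Every LPS array lay below every unstimulated array. The log2 difference was -2.22 ± 0.29 in KO (adjusted p = 0.00298, limma) and -2.08 ± 0.29 in WT (adjusted p = 0.00424, limma). The overlapping second probe gave -2.35 in KO and -2.13 in WT. Within slide 2 the KO difference was -2.39 with a limma adjusted p of 0.0744, so that the KO call was lost there.

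Nlrp3, the sensor of potassium efflux and many sterile stimuli, had scaled log2 signals of -0.73 and -1.12 on KO LPS arrays against -2.66 and -1.92 on unstimulated KO arrays. In WT they were -0.44 and -1.32 after LPS against -2.78 and -2.59 without. LPS arrays lay above unstimulated arrays in both genotypes. The log2 difference was 1.36 ± 0.40 in KO (adjusted p = 0.0539, limma), with a 95% interval of 0.41 to 2.31 before adjustment, and 1.81 ± 0.40 in WT (adjusted p = 0.0218, limma). The WT call was lost with slide as a block (1.77, limma adjusted p = 0.0609), within slide 1 (1.37, limma adjusted p = 0.16) and without WT LPS replicate 1 (1.37, limma adjusted p = 0.111) or either unstimulated WT array (1.71 and 1.90, limma adjusted p = 0.0931 and 0.0658). The KO difference passed with the normexp background correction (1.11, limma adjusted p = 0.0445) and without either WT LPS array (limma adjusted p = 0.0482).

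Nlrc4, the sensor that receives flagellin and type III secretion proteins through NAIP proteins, had scaled log2 signals of 0.87 and 0.89 on KO LPS arrays against -0.35 and 0.24 on unstimulated KO arrays. In WT they were 0.61 and 0.9 after LPS against -0.13 and 0.48 without. The arrays did not overlap, but the log2 difference was 0.94 ± 0.33 in KO (adjusted p = 0.0936, limma) and 0.58 ± 0.33 in WT (adjusted p = 0.265, limma). The spread between the unstimulated replicates was 0.59 in KO and 0.61 in WT, close to the size of the WT difference. In both genotypes replicate 2 was the higher of these. With replicate number as a block the KO difference was called (0.94, limma adjusted p 0.0407) and the WT difference was not (0.58, limma adjusted p 0.143).

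Casp8 had scaled log2 signals of 3.53 and 2.96 on KO LPS arrays against 2.67 and 3.17 on unstimulated KO arrays, which overlap. In WT they were 3.41 and 3.57 after LPS against 3.04 and 2.25 without, which do not. The log2 difference was 0.32 ± 0.38 in KO (95% interval -0.57 to 1.21, adjusted p = 0.595, limma) and 0.85 ± 0.38 in WT (95% interval -0.05 to 1.74, adjusted p = 0.162, limma). The interval in KO reaches a 2.32-fold rise, so that a rise of this size could not be told from no change with these arrays.

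**Figure D2:**
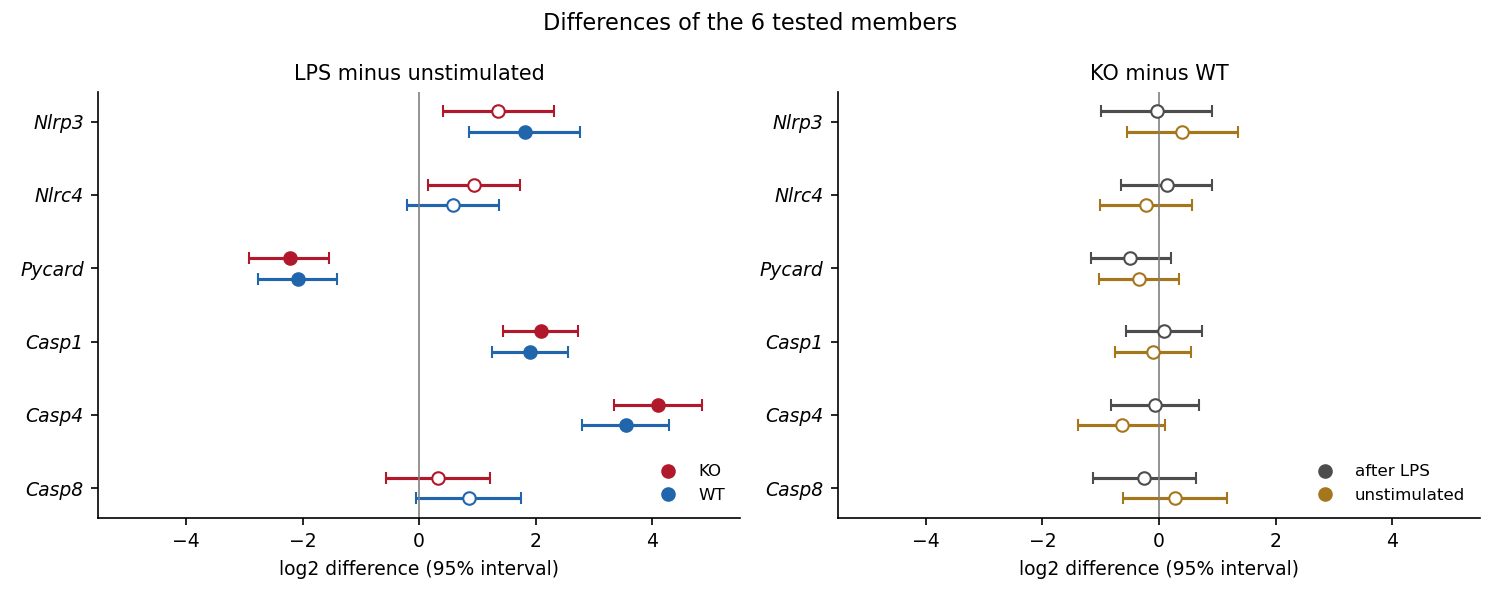
Log2 differences of the 6 tested members with unadjusted 95% intervals from limma (horizontal axes), LPS minus unstimulated on the left and KO minus WT on the right. Filled symbols passed an adjusted p under 0.05. Pycard lies left of 0 and Casp1 and Casp4 lie right of 0 in both genotypes, while every interval of KO minus WT includes 0.

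Markers of other cell types moved with LPS in these sorted cells. All 5 DC markers, Itgax, Flt3, Zbtb46, H2-Ab1 and Cd74, were well above background on both arrays of each group, none was called for LPS, and their summed signal in multiples of the 75th percentile was 1050.0 to 1090.0 in KO LPS, 880.0 to 1090.0 in WT LPS, 942.0 to 1050.0 in unstimulated KO and 848.0 to 1090.0 in unstimulated WT. The 5 macrophage markers summed to 111.0 to 249.0 in KO LPS and 190.0 to 211.0 in WT LPS, against 47.5 to 56.3 in unstimulated KO and 52.4 to 80.2 in unstimulated WT, but the markers did not move together. Fcgr1 and Emr1 lay higher after LPS (log2 differences of 1.71 and 2.48 in KO, 2.40 and 1.63 in WT), with Emr1 called in KO and Fcgr1 in WT, while C1qa fell by 3.12 in KO and by 3.80 in WT (adjusted p = 0.0104 and 0.00554, limma). Cd163 was also called lower and was not well above background after LPS, and the median log2 difference of the 5 was -0.82 in KO and -1.34 in WT. The 4 mast cell and basophil markers summed to 0.0539 to 0.113 in KO LPS and 0.0683 to 0.0823 in WT LPS, against 0.442 to 1.1 and 0.374 to 2.54 in the unstimulated groups of KO and WT, with Mcpt8 and Cpa3 not well above background after LPS in either genotype. The 4 stromal markers summed to 2.11 to 12.2 in KO LPS and 2.2 to 5.9 in WT LPS, against 0.0533 to 0.115 and 0.104 to 0.173 in the unstimulated groups of KO and WT, and Dcn and Lum were not well above background without LPS. Col1a1 did not follow them. It was not well above background on any LPS or unstimulated KO array but was in unstimulated WT, though not on both arrays. The neutrophil markers on the array, 6 of 7, summed to 4.48 to 10.1 over all groups, with Elane not well above background on any array. This sum hides Camp, which was well above background on every LPS array and on no unstimulated array. Its scaled log2 signals were -0.82 and -1.31 in KO LPS and -1.22 and -0.89 in WT LPS. Without LPS they were -7.55 and -7.42 in KO and -6.81 and -6.41 in WT. Of the 4 neutrophil markers tested, 1 was called higher for LPS in each genotype and 3 were not called. The T, B and NK cell lists each summed to at most 0.555. The part of these cells in the LPS results was not tested, and in such bulk samples fewer cells of a type and less RNA per cell cannot be told apart.

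No member was shown to differ between KO and WT cells. In the unstimulated state 0 of 6 tested members were called, beside 0.24% of all genes, and after LPS 0 of 6, beside 0.026%. Averaged over both states 0 of 6 were called, beside 0.143%, and for the difference between the LPS responses 0 of 6, beside 0.0455%. At an unadjusted limma p under 0.05 also 0 of 6 members passed in any of these comparisons, against 394, 187, 411 and 219 of all genes. Each adjusted p of a member was 1.0 in limma.

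Pycard was the member whose KO arrays lay below the WT arrays in both states. Its log2 difference was -0.49 ± 0.29 after LPS (95% interval -1.17 to 0.2), -0.35 ± 0.29 without stimulation (95% interval -1.03 to 0.34) and -0.42 ± 0.20 over both states (95% interval -0.9 to 0.07, adjusted p = 1.0, limma). The second probe gave -0.57 after LPS and -0.36 without. The intervals leave room for a fall of the adaptor's mRNA in KO cells and for no change.

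For Casp4 both unstimulated KO arrays lay below both WT arrays, with a log2 difference of -0.64 ± 0.32 (95% interval -1.39 to 0.11), while after LPS the genotypes overlapped at -0.07 ± 0.32 (95% interval -0.82 to 0.68). The difference between its LPS responses, KO minus WT, was 0.57 ± 0.45 (95% interval -0.5 to 1.63). Casp1 differed by 0.08 ± 0.27 after LPS (95% interval -0.57 to 0.73) and by -0.11 ± 0.27 without (95% interval -0.75 to 0.54), the narrowest intervals among the members.

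The group means of the sensors lay close together within a state. Nlrp3 averaged -0.92 ± 0.27 in KO LPS and -0.88 ± 0.62 in WT LPS, and -2.29 ± 0.52 in unstimulated KO and -2.69 ± 0.14 in unstimulated WT (SD, n = 2 each). Nlrc4 averaged 0.88 ± 0.02 in KO LPS and 0.75 ± 0.20 in WT LPS, and -0.06 ± 0.42 in unstimulated KO and 0.17 ± 0.43 in unstimulated WT. For both sensors the 2 LPS groups ranked above the 2 unstimulated ones, and the genotypes within a state lay within the larger of their spreads. The KO minus WT difference of Nlrp3 was -0.04 ± 0.40 after LPS (95% interval -0.99 to 0.91) and 0.40 ± 0.40 without (95% interval -0.55 to 1.35), and that of Nlrc4 was 0.13 ± 0.33 (95% interval -0.66 to 0.91) and -0.23 ± 0.33 (95% interval -1.02 to 0.56).

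Casp8 averaged 3.24 ± 0.41 in KO LPS and 3.49 ± 0.11 in WT LPS, and 2.92 ± 0.36 in unstimulated KO and 2.64 ± 0.56 in unstimulated WT. From the highest mean to the lowest the order was WT LPS, KO LPS, unstimulated KO and unstimulated WT, and the arrays of neighbours in this order overlapped. KO minus WT was -0.25 ± 0.38 after LPS (95% interval -1.14 to 0.64) and 0.28 ± 0.38 without (95% interval -0.62 to 1.17). The difference between its LPS responses was -0.52 ± 0.53 (95% interval -1.79 to 0.74), that of Nlrp3 -0.44 ± 0.57 (95% interval -1.79 to 0.90), that of Nlrc4 0.36 ± 0.47 (95% interval -0.76 to 1.47), that of Casp1 0.19 ± 0.39 (95% interval -0.73 to 1.10) and that of Pycard -0.14 ± 0.41 (95% interval -1.11 to 0.83).

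Around the members, other genes of the pathway were read from 6 lists. Their LPS counts stand beside 20.8% of all genes called in KO (10.4% higher, 10.5% lower) and 20.2% in WT (9.48% higher, 10.7% lower). With so few genes a list, they describe these genes and no more. Among other sensors, 8 of 12 genes were tested and 2 were higher and 1 lower after LPS, in KO and in WT alike. Mefv, which encodes the sensor pyrin, rose by 5.24 ± 0.91 on the log2 scale in KO and by 4.34 ± 0.91 in WT (adjusted p = 0.00914 and 0.0186, limma). Its scaled log2 signals were 5.29 and 4.88 in KO LPS and 4.61 and 5.41 in WT LPS, against -0.76 and 0.46 in unstimulated KO and -0.79 and 2.12 in unstimulated WT, so that the groups did not overlap but the unstimulated WT replicates lay far apart. The KO call was lost without KO unstimulated replicate 1 (4.63, limma adjusted p 0.0525) and the WT call without WT LPS replicate 1 or 2 (4.74 and 3.94, limma adjusted p 0.0569 and 0.0898). Ifi204, of the same HIN200 family as Aim2, rose by 4.01 in KO and by 3.63 in WT (adjusted p = 0.00105 and 0.00171, limma), and Nlrp10, an NLR without leucine-rich repeats, fell by 2.89 in KO and by 2.18 in WT (adjusted p = 0.00118 and 0.0038, limma). The NAIP genes Naip1, Naip2, Naip5 and Naip6, partners of Nlrc4, were not called in either genotype.

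Nlrp1a was the only gene of the 6 lists called in a comparison of genotypes. This sensor of the NLRP1 group has its probe on the minus strand at chr11:70910764-70912423 (mm9), a span with 1600 bases more than the probe. Its scaled log2 signals were -7.31 and -7.15 on KO LPS arrays and -4.59 and -2.71 on WT LPS arrays, and -7.86 and -7.34 on unstimulated KO arrays and -3.03 and -2.55 on unstimulated WT arrays. It was well above background on all 4 WT arrays and on none of the KO arrays. In unstimulated cells it was at least 6.45-fold lower in KO, and after LPS at least 3.18-fold lower. This bound sets the mean of the WT arrays against, on each KO array, the higher of the dimmest signal well above background and the gene's own. The fitted log2 differences, which depend on signals near background, were -4.81 unstimulated (adjusted p = 0.0399, limma) and -3.58 after LPS (adjusted p = 0.416, limma). The gene entered the test through the WT groups, in which it is bright, so its calls are given as a description. Over both states the fitted log2 difference was -4.20 ± 0.42 (adjusted p = 0.0232, limma), a value that depends on signals near background. With normexp the unstimulated difference was -1.58 (adjusted p = 0.588), with slide as a block -4.21 (adjusted p = 0.1) and within slide 1 -4.55 (adjusted p = 0.308, limma), so that the unstimulated call was lost in each. It was also lost with quantile scaling, with only the 4 unstimulated arrays and with an intensity trend in the variance prior (limma adjusted p 0.0731, 0.0516 and 0.0619). The call over both states was lost with normexp (-1.18, limma adjusted p 0.624) and with slide as a block (-3.60, limma adjusted p 0.147). Leaving out KO unstimulated replicate 1 or 2, WT unstimulated replicate 1 or 2 or either KO LPS array lost it too, with log2 differences of -5.07 to -4.55 over all arrays left out, and each of these also lost the call over both states (limma adjusted p 0.0832 to 0.204).

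**Figure D3:**
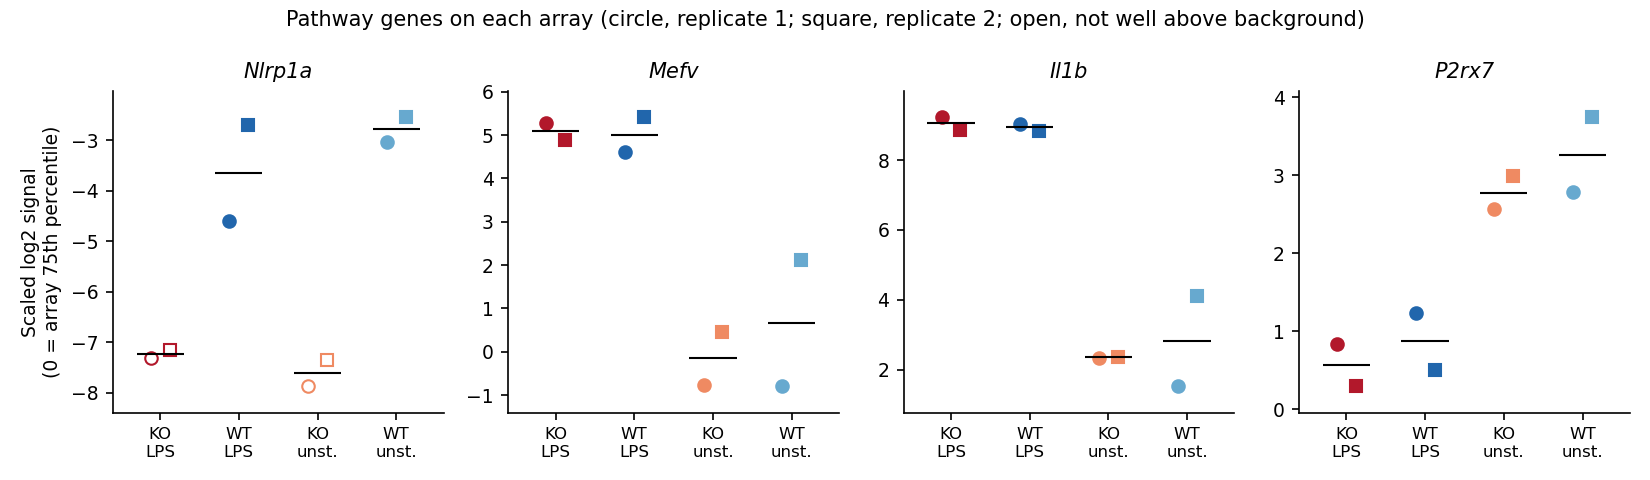
Scaled log2 signal (vertical axes, each with its own range) of Nlrp1a, Mefv, Il1b and P2rx7 on each of the 8 arrays, with lines at the means of 2 arrays. Nlrp1a is at -7.15 or lower on the 4 KO arrays, all open because it was not well above background there, and at -4.59 or higher on the 4 WT arrays. Mefv and Il1b lie higher and P2rx7 lower on LPS arrays.

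Of the 9 tested genes that activate or license inflammasomes, 4 were higher and 1 lower after LPS in KO, and 4 were higher and 2 lower in WT. The 4 higher ones were interferon-inducible GTPases. The Gbp proteins among them help in mice to expose bacterial LPS and DNA to caspase-11 and AIM2. Gbp5 rose by 6.37 ± 0.29 on the log2 scale in KO and by 6.36 ± 0.29 in WT, Gbp2 by 4.14 and 4.40, Gbp3 by 3.65 and 4.01 and Irgm1 by 3.81 and 3.44 in KO and WT (adjusted p at most 0.000615 in limma). The lower ones, named after their values were seen, were P2rx7, the ATP-gated channel upstream of NLRP3, which fell by 2.20 ± 0.44 in KO and by 2.39 ± 0.44 in WT (adjusted p = 0.0151 and 0.012, limma), and Txnip, which fell by 2.01 ± 0.54 in WT (adjusted p = 0.0423, limma) and had a log2 difference of -1.63 ± 0.54 in KO (adjusted p = 0.0792, limma). The Txnip call in WT was lost without any single one of the 8 arrays (limma adjusted p 0.0513 to 0.187). Scaled log2 signals of P2rx7 were 0.84 and 0.3 in KO LPS and 1.24 and 0.5 in WT LPS, against 2.56 and 2.99 in unstimulated KO and 2.78 and 3.74 in unstimulated WT, without overlap. The KO call of P2rx7 was lost without replicate 2 of KO LPS or of unstimulated KO (-1.93 and -1.98, limma adjusted p 0.0808 and 0.0919), and its WT call without WT LPS replicate 2 (-2.02, limma adjusted p 0.0676).

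Of the 9 genes listed as substrates and outputs, 6 were higher after LPS in KO and 4 in WT, and 0 were lower in either. Casp12 is on this list and on that of the other caspases, so its call in KO counts in both. Il1b, the precursor that caspase-1 cleaves, had scaled log2 signals of 9.22 and 8.87 in KO LPS and 9.04 and 8.82 in WT LPS, against 2.35 and 2.36 in unstimulated KO and 1.54 and 4.12 in unstimulated WT. It rose by 6.69 ± 0.74 in KO and by 6.10 ± 0.74 in WT on the log2 scale (adjusted p = 0.00174 and 0.00262, limma). Il1a rose by 7.97 and 8.18, and the extracellular inhibitors Il1rn and Il18bp rose by 3.65 and 3.66 and by 3.96 and 3.80, in KO and WT. Il18 differed by 1.72 ± 1.11 in KO and 1.23 ± 1.11 in WT (adjusted p = 0.325 and 0.478, limma), with replicates far apart, and Gsdmd by 0.56 ± 0.39 and 0.61 ± 0.39 (adjusted p = 0.362 and 0.309, limma), so neither was called in this fit. With the replicate block the SE of Il18 was 0.281 and it was called higher in KO and WT (limma adjusted p 0.00768 and 0.024). The 2 genes called in KO alone, named after their values were seen, were Ninj1, which drives membrane rupture (1.74 in KO, 1.15 in WT), and Casp12, a caspase-1 relative (at least 2.64-fold higher in KO, not well above background on any unstimulated array). KO LPS was the one group in which both arrays measured Casp12 above background, and the gene entered the test through it, so its call is given as a description. With normexp its log2 difference in KO was 0.84 (limma adjusted p 0.0825), which ended the call, while Ninj1 passed in WT with normexp (1.25, limma adjusted p 0.0288) and with an intensity trend in the variance prior (limma adjusted p 0.0396). Their responses were not shown to differ between genotypes (adjusted p = 1.0 for the difference between responses, limma). The KO call was lost for Ninj1 without KO LPS replicate 1 or either unstimulated KO array (1.45 to 1.85, limma adjusted p 0.0637 to 0.0876) and for Casp12 without KO LPS replicate 1 or KO unstimulated replicate 2 (limma adjusted p 0.0829 and 0.111). For Il18bp it was lost without either unstimulated KO array (limma adjusted p 0.0516 and 0.0527), and the WT call without WT LPS replicate 2 or WT unstimulated replicate 1 (limma adjusted p 0.0527 and 0.0623).

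**Figure D4:**
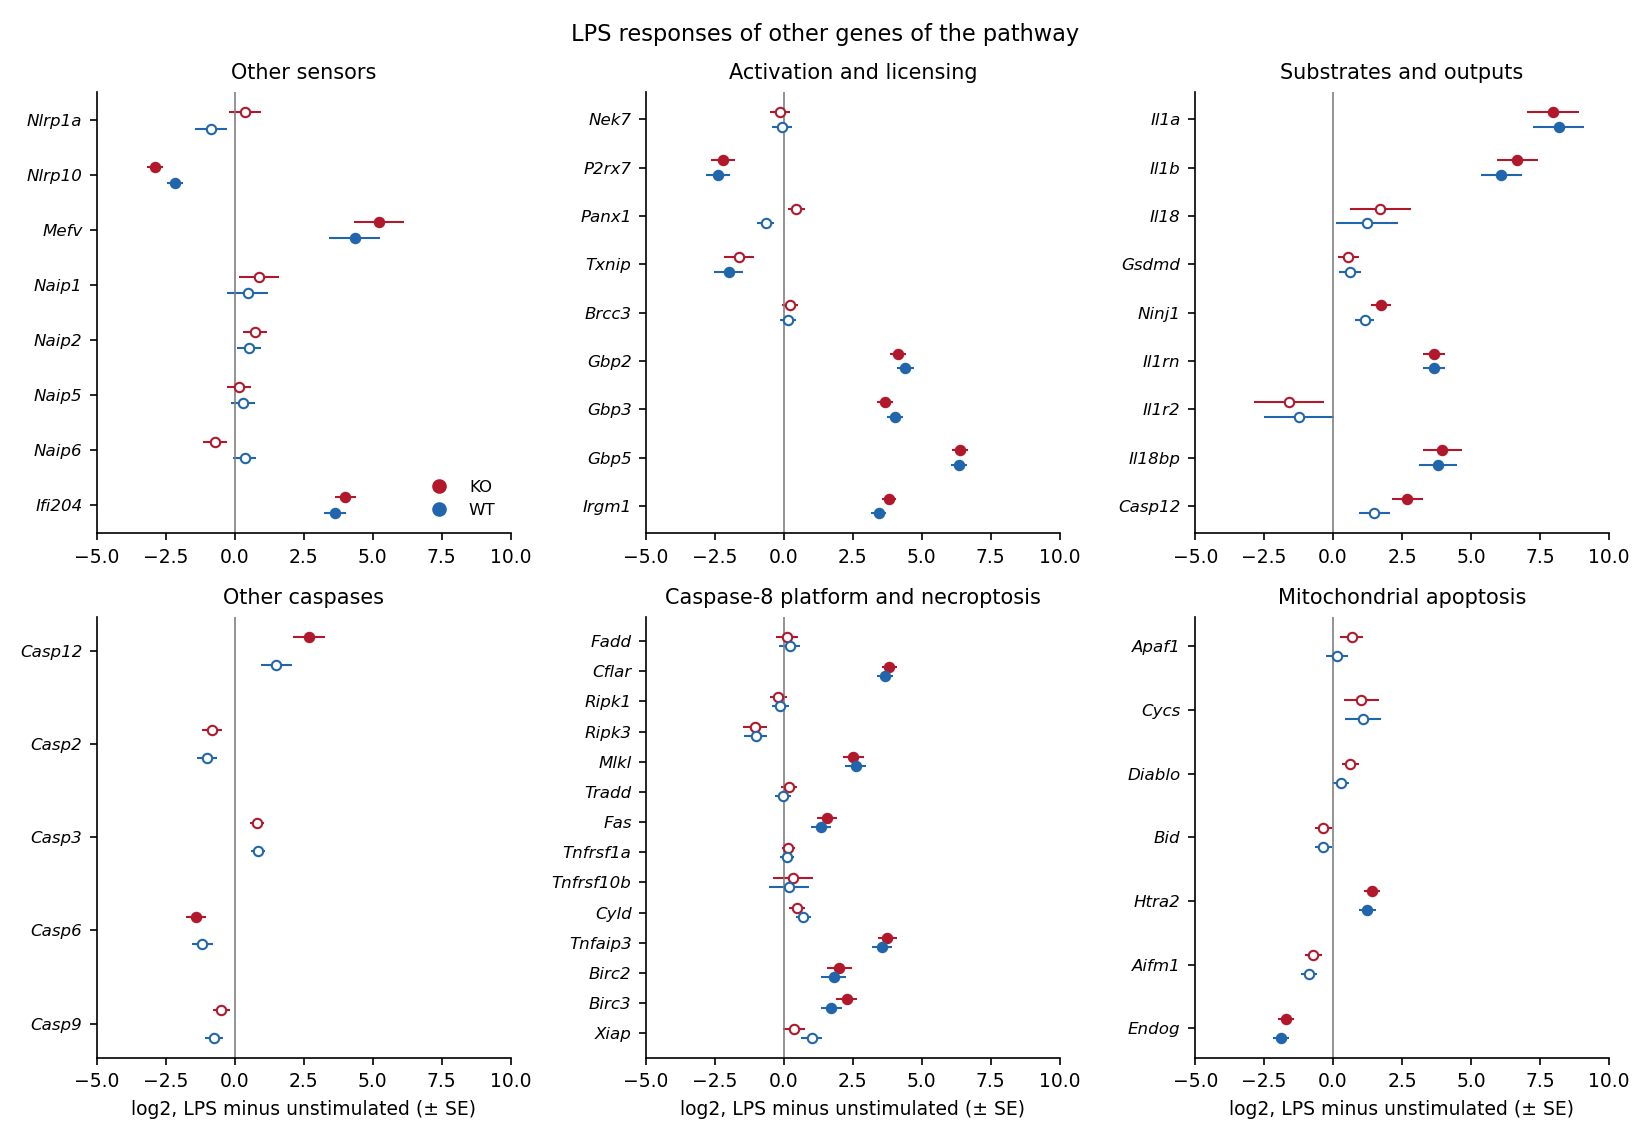
Log2 difference, LPS minus unstimulated, ± SE (horizontal axes) of the tested genes of the 6 lists in KO and WT. Filled symbols passed an adjusted p under 0.05 in limma, and fitted values of Nlrp1a and Casp12 rest on signals near background. Gbp5 at 6.37 and 6.36, Il1a at 7.97 and 8.18 and Cflar at 3.82 and 3.66 lie far right of 0 in KO and WT, and P2rx7 and Nlrp10 lie left of it.

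Among the 5 other caspases tested, 1 was higher and 1 lower after LPS in KO. In WT 0 of the 5 were called, while all 5 had an unadjusted limma p under 0.05, as had 5347 of the 15400 genes tested. For Casp12, WT LPS replicate 1 was the only WT array well above background, so its WT value rests on signals near background. The one higher in KO was Casp12, which had entered the test through KO LPS, and the one lower in KO was Casp6, an executioner caspase, with -1.42 ± 0.37 in KO (adjusted p = 0.0364, limma) and -1.18 ± 0.37 in WT (adjusted p = 0.0661, limma). The Casp6 call in KO was lost without any one KO array or WT LPS array (limma adjusted p 0.0555 to 0.179), and in WT it passed without WT unstimulated replicate 1 (-1.63, limma adjusted p 0.0404).

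Around Casp8, 6 of the 14 tested genes of its platform and of necroptosis were higher after LPS in KO and 6 in WT, and 0 were lower. Cflar, which encodes the caspase-8 modulator c-FLIP, rose by 3.82 ± 0.28 in KO and by 3.66 ± 0.28 in WT on the log2 scale (adjusted p = 0.000415 and 0.000584, limma). The ubiquitin editor Tnfaip3 rose by 3.75 and 3.55, Mlkl, the executioner of necroptosis, by 2.52 and 2.60, and Birc3, a ubiquitin ligase of the TNF receptor complex, by 2.27 and 1.72, in KO and WT. The Birc3 call in WT was lost without WT LPS replicate 1 or 2 (1.89 and 1.56, limma adjusted p 0.0726 and 0.116) or WT unstimulated replicate 1 (1.31, limma adjusted p 0.102). Fadd, the adaptor that recruits caspase-8, differed by 0.11 ± 0.39 in KO and 0.20 ± 0.39 in WT (adjusted p = 0.87 and 0.76, limma). Ripk3, the kinase that activates MLKL, differed by -1.04 ± 0.43 in KO and -1.03 ± 0.43 in WT (adjusted p = 0.138 in both, limma). With the replicate block Ripk3 was called lower in KO and WT (limma adjusted p 0.0283 and 0.0297).

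Of the 7 genes of mitochondrial apoptosis, 1 was higher and 1 lower after LPS in each genotype. Htra2, which encodes a mitochondrial protease, rose by 1.42 ± 0.30 in KO and by 1.24 ± 0.30 in WT (adjusted p = 0.0181 and 0.0296, limma), and Endog, a mitochondrial nuclease, fell by 1.71 ± 0.29 in KO and by 1.88 ± 0.29 in WT (adjusted p = 0.00807 and 0.00619, limma). The Htra2 call was lost in WT without any one WT array (limma adjusted p 0.0682 to 0.151) and in KO without KO LPS replicate 2 or either unstimulated KO array (limma adjusted p 0.0537 to 0.112), and the Endog call in KO without KO LPS replicate 2 (-1.58, limma adjusted p 0.0541).

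Several calls of these other genes did not hold by slide. With slide as a block the calls of Txnip and Htra2 in WT and of Casp6 in KO were lost (limma adjusted p 0.093, 0.0608 and 0.0978). Within slide 2, which held 2 KO LPS arrays and 1 unstimulated KO array, the KO calls of Nlrp10, P2rx7, Il18bp, Ninj1, Casp12, Casp6, Tnfaip3, Mlkl, Birc3, Htra2 and Endog were lost (limma adjusted p 0.0514 to 0.171). Within slide 1 the WT calls of Mefv, Txnip, Mlkl, Birc3, Htra2 and Endog were lost (limma adjusted p 0.0518 to 0.138). Fewer arrays enter each within-slide fit, and each of these differences kept its sign. With only the 4 arrays compared the WT calls of Birc3, Htra2 and Txnip were lost (limma adjusted p 0.051 to 0.0664), and without a filter on dim probes those of Htra2 and Txnip in WT and of Casp6 in KO (limma adjusted p 0.0525 to 0.0708). The Txnip call was also lost with the mean of its probes (limma adjusted p 0.059).

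The pattern of each member over the 8 arrays was set against that of 15353 genes by the root mean square difference of mean-centred scaled log2 signals, a description with no test. Nearest to Casp4 were Ifih1, which encodes the RNA sensor MDA5, at 0.155 and Ms4a6d at 0.205. Nearest to Nlrp3 were Bai1 at 0.223 and the cytokine gene Osm at 0.227, and nearest to Casp1 were Amn1 at 0.113 and LOC100505088 at 0.119. Pycard lay nearest to Itpripl1 at 0.117 and Plcb2 at 0.177, Nlrc4 to 2310031A07Rik at 0.073 and Zfp523 at 0.081, and Casp8 to Atn1 at 0.156 and Pola2 at 0.176. Among the members, Nlrc4 and Casp8 were the closest pair at 0.452, followed by Nlrp3 and Casp1 at 0.475, and Pycard and Casp4 were the farthest apart at 3.006. A gene with a small response over all arrays has small differences by construction, so these values are not comparable between members.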

How the data were processed

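The 7 members, the 6 pathway lists and the 8 marker lists were chosen with earlier results of these data known. Per the file headers, the authors read each scan with Agilent Feature Extraction (10.5.1.1). Their deposited scanner files hold intensity values, background-subtracted and detrended within an array but not scaled between arrays, and spot flags of another unit (0 or 1). Log2 values in the deposited matrix differed from the log2 of the processed signal by 1 offset per array (100% of 41174 probes within 0.01 of it) and had 75th percentiles of 9.19. They served as an alternative.

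Of 45018 spots, 1639 controls and 120 to 174 outlying spots per array were left out. The log2 processed signal minus the 75th percentile of the array was used. A probe stayed if both arrays of some group were well above background (23739 did), and the brightest probe stood for each gene name, which gave 15400 genes. That filter admits a gene through the group in which it is bright, as it did Nlrp1a through WT and Casp12 through KO LPS. Means of the 4 groups came from limma (3.58.1, in R 4.3.3 with the package data.table, version 1.17.8), with 4 residual and 2.88 prior degrees of freedom, and two-sided p values were adjusted over all genes of each of 6 comparisons by the Benjamini-Hochberg method, with calls at an adjusted p under 0.05. The fit was tested on simulated data. One gene of the caspase list is not reported here. The number of arrays, 2 a group, limits the precision. Beside the members, the text names from each list at most 4 genes with the largest change among those called for LPS, those called between genotypes and those whose role a member needs (Il1b, Il18, Gsdmd, Cflar, Fadd, Ripk3 and Mlkl), and names others as chosen after their values were seen. For each member it names the 2 genes nearest in pattern. Replicate numbers are shared by the labels of the 4 groups, but with 2 numbers they were not taken as pairs in the fit reported. That fit leaves any difference shared by a replicate number in the spread, and a replicate block was run as an alternative. Alternatives covered background correction, scaling, probe filter, probe choice, slide, replicate number, variance prior, the arrays in the fit and leaving out each array.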

Additional observations from a re-analysis of the deposited data

How the results depend on the processing

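The members called for LPS changed by over 1.5 times only within single slides, to 1 in KO on slide 2 (3 with all arrays) and to 2 in WT on slide 1 (4 with all arrays), where fewer arrays enter the fit. Casp4 and the direction of each LPS difference of a member kept their call or sign under all alternatives run. Of the LPS values of members, 8 of 228 alternatives ended a call and 5 made one: Nlrp3 in KO passed also with probes well above background on all arrays (adjusted p = 0.0476, limma), and Nlrc4 in KO passed with the replicate block (0.94, adjusted p = 0.0407, limma). Replicate numbers were checked as pairs: the differences between replicates 1 and 2 correlated across 15353 genes by 0.0131 to 0.692 over the 6 pairs of groups. The correlation was highest between KO LPS and WT LPS (0.692), followed by unstimulated KO and unstimulated WT (0.498). With the replicate block 4187 genes were called in KO and 4155 in WT for LPS. The block also called Il18 (adjusted p = 0.00768 in KO and 0.024 in WT, limma) and Ripk3 (0.0283 and 0.0297) in both genotypes and Casp6 in WT (0.0402).

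No member was called between genotypes under any alternative, and reversals of sign there reached at most 0.40 on the log2 scale (Nlrp3 after LPS without WT LPS replicate 1), at adjusted p of 0.975 to 1.0 (limma). KO minus WT turned to 0.034 for Casp1 unstimulated with quantile scaling, to 0.068 for Nlrc4 unstimulated within slide 1, to 0.0016 for Nlrp3 after LPS with normexp, and for Casp4 after LPS to 0.0026 with quantile scaling and 0.025 within slide 2. Over both states it turned to 0.0017, 0.079 and 0.0039 for Casp1 with normexp, quantile scaling and slide as a block, and to 0.17 for Nlrc4 with slide as a block. With 1 array left out, KO minus WT ranged in unstimulated cells from -0.54 to 0.077 for Nlrc4, from -0.30 to 0.084 for Casp1 and from -0.12 to 0.67 for Casp8. After LPS it ranged from -0.068 to 0.23 for Casp1, from -0.48 to 0.40 for Nlrp3, from -0.53 to 0.039 for Casp8, from -0.014 to 0.27 for Nlrc4 and from -0.17 to 0.025 for Casp4. Over both states it ranged from -0.18 to 0.21 for Casp8, from -0.11 to 0.083 for Casp1, from -0.041 to 0.40 for Nlrp3 and from -0.20 to 0.10 for Nlrc4. The difference between LPS responses ranged from -0.40 to 0.12 for Pycard and from -0.0023 to 0.38 for Casp1, and the LPS difference of Fadd from -0.23 to 0.45 in KO and from -0.21 to 0.60 in WT. The cause of these changes was not tested.

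Counts over all genes moved more. For LPS they were 441 within slide 2 and 1420 to 3105 with 1 array left out in KO (3208 in the fit reported), and 1528 within slide 1 and 1442 to 2866 in WT (3106). Between genotypes they were 0 to 56 unstimulated (37), 0 to 5 after LPS (4), 0 to 23 over both states (22) and 0 to 14 for the difference between responses (7). Without a filter on dim probes the median log2 difference of all genes was -0.355 for LPS in WT, and with normexp and quantile scaling it stayed within 0.105 of 0 in each comparison. Before normexp, 20 spots far under their local background were left out, 16 of them on KO LPS replicate 2, a choice made after seeing the data, as were the alternatives for list counts and for named genes that are not members. Within-slide values for both states together and for the difference between responses could not be had, since slide 1 held no KO LPS array and slide 2 no unstimulated WT array. Near background, Aim2 has no fold change, and the fitted values of Nlrp1a in genotype comparisons and of Casp12 depend on the correction of the background.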
